A study of Homo sapiens with 8 samples.

Results

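The family of miR-130, miR-301 and miR-454 is a set of microRNAs (miRNAs, short RNAs that guide the silencing complex to matching messenger RNAs) that share 1 seed, the bases that choose the targets. Its members were taken by name from the table of read counts per mature miRNA. Of the 8 names sought, 7 were among the 2026 rows: the 5 guide strands hsa-miR-130a-3p, hsa-miR-130b-3p, hsa-miR-301a-3p, hsa-miR-301b-3p and hsa-miR-454-3p, and the 2 passenger strands hsa-miR-130b-5p and hsa-miR-454-5p, written below without the species prefix. The older name hsa-miR-301b had no row apart from miR-301b-3p. CD44v6-positive HCT116 cells were compared with CD44v6-negative HCT116 cells. HCT116 is a human colorectal cancer line. Per the labels' protocols the cells of both groups came from spheroids grown without serum in low-attachment flasks, were stained for CD44v6, a variant of the cell surface receptor CD44 that is used as a stem-like marker, and were sorted by flow cytometry with dead cells removed. Each group had 2 samples, each joined from 2 of the 8 label entries, and the labels do not say whether the samples came from separate cultures. The p-values therefore rest on the spread between these samples alone, and that spread may be technical.

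A miRNA hairpin is cut into a duplex, from which the silencing complex keeps mostly the guide strand, while the passenger strand is mostly degraded. The guide pairs through its seed, bases 2 to 8 from its 5′ end, with sites in target messenger RNAs. Guides of this family are known to repress members of the TGF-β pathway such as SMAD4 and TGFBR2, and several have been described as raised in tumours. The family comes from 3 places in the genome, so guides that share a seed do not all share a transcript.

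The mature strands are shown because the seed joins the guides and the rest of the sequence sets them apart. Sequences are from RefSeq (GRCh38.p14), which matched 6 of the 7 members, and capitals mark the seed.
miR-130b-3p: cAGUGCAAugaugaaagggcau
miR-301a-3p: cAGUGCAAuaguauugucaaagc
miR-301b-3p: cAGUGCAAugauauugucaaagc
miR-454-3p: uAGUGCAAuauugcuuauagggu
miR-130b-5p: aCUCUUUCccuguugcacuac
miR-454-5p: aCCCUAUCaauauugucucugc

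All 4 guides shown carry the same seed, and the passengers carry others. miR-301a-3p and miR-301b-3p were the closest pair, alike at 21 of 23 bases, with the substitutions A10G and G11A counted from the 5′ end of miR-301a-3p. Reads of these 2 guides with a mismatch at those bases could have been placed on either, and how such reads were treated is not given in the sources used here. miR-130b-3p was alike with miR-301b-3p at 13 of 22 bases and with miR-454-3p at 10 of 22.

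By GENCODE release 29 on GRCh38, MIR454 (chromosome 17, 59137758 to 59137872) and MIR301A (chromosome 17, 59151136 to 59151221) lay on the minus strand in introns of SKA2, a gene for a subunit of the spindle and kinetochore complex, 13263 bases apart. MIR301B (chromosome 22, 21652981 to 21653058) and MIR130B (chromosome 22, 21653304 to 21653385) lay on the plus strand only 245 bases apart. In the annotation of the same noncoding transcript unit, MIR130B overlapped an exon and MIR301B lay in an intron. MIR130A (chromosome 11, 57641198 to 57641286, plus strand) stood alone in an intron of an uncharacterised noncoding gene.

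The CD44v6-positive samples held 919802 and 154481 reads and the CD44v6-negative samples 7880631 and 4592278, a 51.0-fold span, so depth and group cannot be told apart. For a miRNA with 0 reads, the level could still be as high as that of 3 reads: 3.23 and 15.6 CPM in CD44v6-positive samples 1 and 2 and 0.574 and 0.544 CPM in CD44v6-negative samples 1 and 2. CPM here is reads per 1000000, scaled by TMM, and intervals and limits cover counting error only, since PCR copies are not independent molecules. Summed over 6 epithelial and intestinal marker miRNAs, levels were 16827 and 13367 CPM in CD44v6-positive cells against 30074 and 17766 CPM in CD44v6-negative cells, and all 6 were read. Of 6 blood and endothelial markers, all were read, and their sum was 208 and 489 CPM in CD44v6-positive cells against 385 and 299.7 CPM in CD44v6-negative cells. Of 6 stromal and muscle markers 5 had a row of their own, with sums of 853 and 5030 CPM in CD44v6-positive cells against 1266 and 862 CPM in CD44v6-negative cells. The other, miR-199a-3p, was counted in a joint row with miR-199b-3p, which these sums leave out. That joint row had a log2 fold change of 0.76 ± 0.61 (SE; edgeR adjusted p = 0.448). Of 3 neural and liver markers all were read, with sums of 885 and 1047 CPM in CD44v6-positive cells against 1983 and 949 CPM in CD44v6-negative cells. CD44v6-positive sample 2 was highest of the samples in some single markers of other tissues and lowest in others. Among those lowest there were miR-126-3p (141 CPM), miR-145-5p (57.3 CPM) and miR-9-5p (437 CPM). Most of its stromal and muscle sum was miR-143-3p, at 4968 CPM. The red cell miR-451a was at 15.1 and 281 CPM in CD44v6-positive samples 1 and 2 against 24.9 and 7.61 CPM in CD44v6-negative cells, and the liver miR-122-5p at 48.5 and 609 CPM in CD44v6-positive cells against 4.59 and 3.99 CPM in CD44v6-negative cells. The part of these markers in the values below was not tested, and many of the results are given with and without that sample.

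In CD44v6-positive cells 4 of the 5 guides had lower fitted levels and miR-130b-3p did not, while both passengers had higher fitted levels. With edgeR's quasi-likelihood test 0 of the 7 members passed an adjusted p under 0.05, against a background of 0.0% of the 570 tested miRNAs. At an unadjusted p under 0.05 there were 2 members, both lower in CD44v6-positive cells, where 17.5% of all tested miRNAs lay lower and 13.0% higher at that p. DESeq2 passed 0 members and 13.2% of all tested miRNAs, and limma-voom passed 0 members and 0.702%. A fit with the replicate number as a block, for which the labels give no pairing, passed 4 members and 40.0% of all tested miRNAs. The median log2 fold change (CD44v6-positive minus CD44v6-negative) was -0.71 over the 7 members and -1.22 over the 5 guides, beside -0.31 over all tested miRNAs. All 7 members passed the filter on low counts.

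miR-301a-3p, from the SKA2 intron, was the most abundant guide in CD44v6-negative cells. It was read 688 and 52 times in CD44v6-positive samples 1 and 2, or 742 and 271 CPM, against 12028 and 6106 times in CD44v6-negative samples 1 and 2, or 2299 and 1106 CPM. Both CD44v6-positive samples lay below both CD44v6-negative samples, yet within each group the samples stood 2.74-fold and 2.08-fold apart. Its log2 fold change was -1.74 ± 0.68 (SE; edgeR adjusted p = 0.147), and it was -1.004 without CD44v6-positive sample 2 and -2.76 without CD44v6-positive sample 1.

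miR-301b-3p, its near twin from chromosome 22, followed the same order of samples. Its level was 429 and 120 CPM in CD44v6-positive samples 1 and 2, from 398 and 23 reads, against 1132 and 508 CPM in CD44v6-negative samples 1 and 2. The groups did not overlap. With edgeR the log2 fold change was -1.56 ± 0.76 (SE; adjusted p = 0.216), and it was -0.74 without CD44v6-positive sample 2 and -2.89 without CD44v6-positive sample 1. The 95% counting interval of the shallowest value ran from 75.9 to 179.7 CPM.

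miR-454-3p, which shares its SKA2 intron cluster with miR-301a-3p, differed less between the samples of a group with TMM scaling. It stood at 275 and 271 CPM in CD44v6-positive cells, from 255 and 52 reads, against 613 and 661 CPM in CD44v6-negative cells. In these TMM-scaled values the groups did not overlap, and the gap between them was far wider than the gap within either. The TMM factors of the CD44v6-negative samples were 0.664 and 1.20, so the closeness of these 2 samples depends on the scaling. The log2 fold change was -1.22 ± 0.47 (SE; edgeR adjusted p = 0.145) with TMM and -0.97 with total count scaling.

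miR-130a-3p, the guide from chromosome 11 studied in blood vessel growth, was at 525 and 297 CPM in CD44v6-positive cells and at 872 and 484 CPM in CD44v6-negative cells. Here the groups overlapped, since CD44v6-positive sample 1 lay above CD44v6-negative sample 2. The log2 fold change was -0.71 ± 0.57 (SE; edgeR adjusted p = 0.445). With CD44v6-negative sample 1 left out it was -0.16, with CD44v6-positive sample 2 left out -0.17 and with CD44v6-positive sample 1 left out -1.31.

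With TMM scaling miR-130b-3p was the steadiest member. It was read 778 and 164 times in CD44v6-positive cells, or 839 and 854 CPM, against 3967 and 4291 times in CD44v6-negative cells, or 758 and 777 CPM. The 4 scaled values lay close together, with the CD44v6-positive samples slightly higher. The TMM factors ran from 0.664 to 1.24, and without them the values lay further apart and the groups overlapped. Between the groups the log2 fold change was 0.14 ± 0.45 (SE; edgeR adjusted p = 0.854). Without CD44v6-positive sample 2 it was 0.36, and without CD44v6-positive sample 1 it was 0.03.

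**Figure D1:**
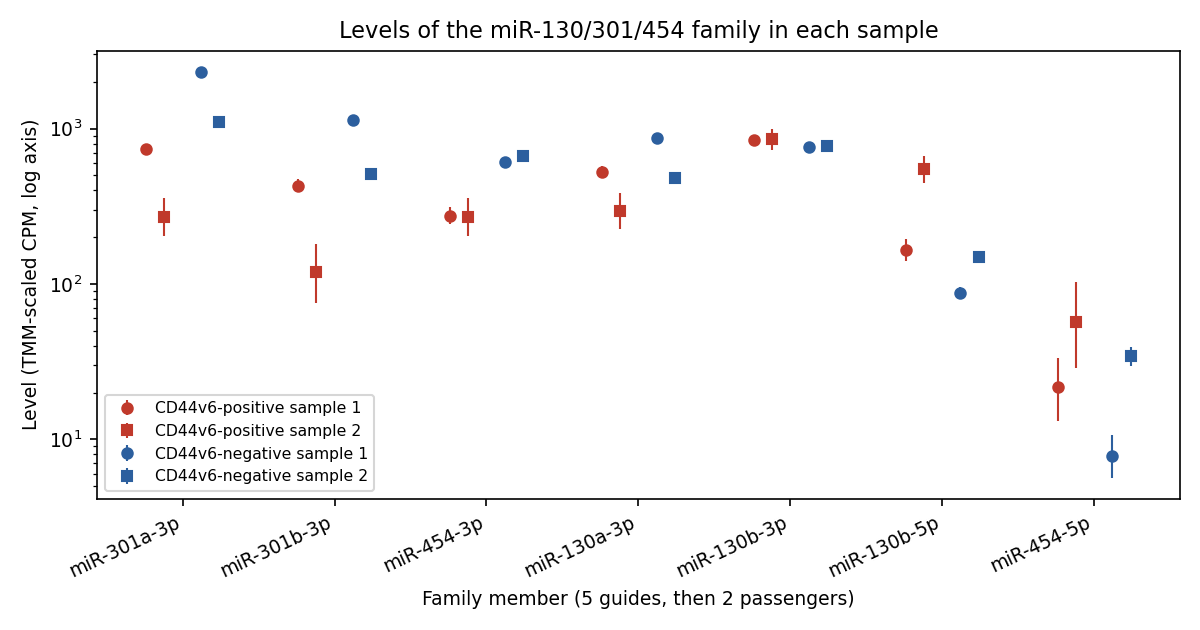
Level of each family member in each sample, in TMM-scaled CPM on a log axis, with CD44v6-positive samples in red left of CD44v6-negative samples in blue and bars for the 95% counting interval. The groups are apart for miR-301a-3p, miR-301b-3p and miR-454-3p, and miR-130b-3p is close in all samples at 758 to 854 CPM.

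In TMM-scaled CPM the groups did not overlap in 3 members that were lower and 2 that were higher in CD44v6-positive cells, where 34.6% of all tested miRNAs lay apart and lower and 24.9% apart and higher. With 7 members, counts of this size are near those shares. Without the TMM factors the groups overlapped for both higher members, miR-130b-3p and miR-130b-5p. By rank of abundance within a library, which needs no scaling, miR-130b-3p was at places 76 and 73 in CD44v6-positive cells against 96 and 92 in CD44v6-negative cells. miR-301a-3p was at places 82 and 121 in CD44v6-positive cells against 62 and 74 in CD44v6-negative cells. miR-454-3p was at places 116 and 121 in CD44v6-positive cells and 101 and 103 in CD44v6-negative cells.

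The choice of scaling shifted the fold changes, though not equally for every miRNA. Upper quartile scaling shifted the median of all tested miRNAs by 0.34 and total count scaling by 0.31 on the log2 scale. Relative to that median, miR-301a-3p was at -1.43 with TMM, -1.43 with upper quartile and -1.39 with total count scaling. miR-130b-3p was at 0.45, 0.43 and 0.40 in the same order. miR-454-5p moved more, at 1.11, 1.07 and 0.91. The order of the members by fold change was the same under these 3 scalings.

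**Figure D2:**
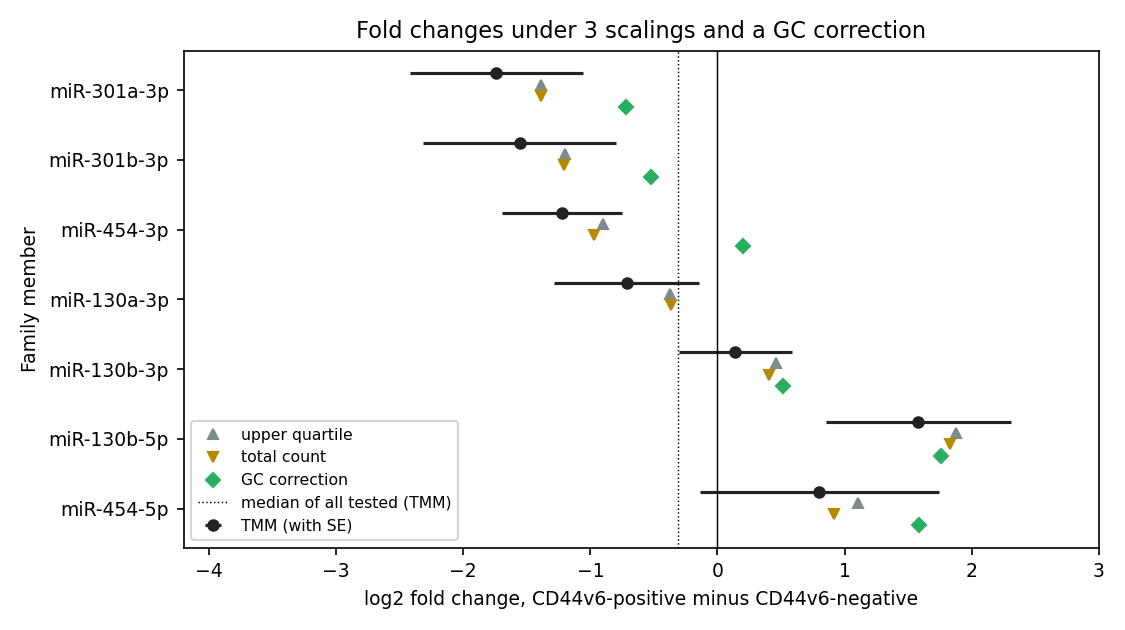
Log2 fold change of each member, CD44v6-positive minus CD44v6-negative, with the edgeR standard error for TMM scaling and points for 2 other scalings and the GC correction (no point for miR-130a-3p). Guides other than miR-130b-3p lie left of 0 with TMM, the passengers right of it, and the GC correction moves miR-454-3p to 0.20.

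GC content differed along with the fold changes. Across the 497 tested miRNAs with a RefSeq sequence, log2 fold change and GC content had a Pearson r of 0.46 and a Spearman rho of 0.50, a description over miRNAs that share the 4 libraries and are not independent. The lowest guide in GC was miR-454-3p at 34.8%, miR-301a-3p and miR-301b-3p had 39.1%, miR-130b-3p 45.5%, miR-454-5p 40.9% and miR-130b-5p 47.6%, beside a median of 50.0% over these miRNAs. After a smooth GC trend was removed in each sample, the log2 fold change was -0.72 for miR-301a-3p, -0.52 for miR-301b-3p, 0.20 for miR-454-3p and 0.52 for miR-130b-3p. The passengers kept positive values, 1.76 for miR-130b-5p and 1.58 for miR-454-5p. Over these 6 members the median was 0.36 with the correction and -0.54 without it.

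**Figure D3:**
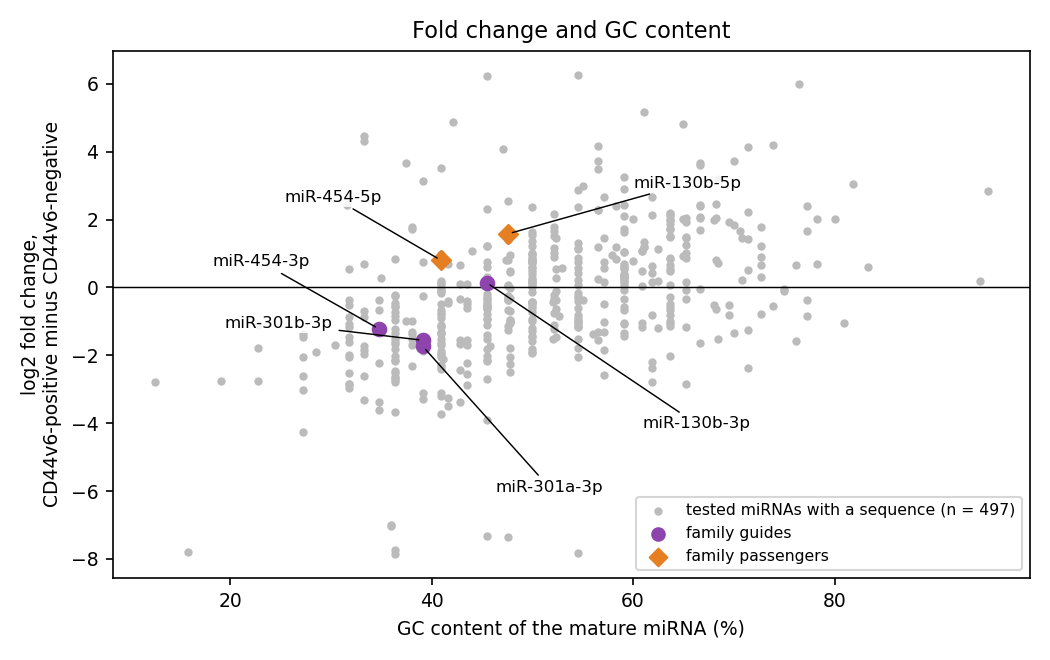
Log2 fold change (CD44v6-positive minus CD44v6-negative) against the GC content of the mature miRNA for 497 tested miRNAs in grey, with 4 family guides as circles and both passengers as diamonds. Low-GC miRNAs tend to lie lower, and the 3 low guides sit at 34.8% to 39.1% GC among them.

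Summed over the 5 guides, the seed family as a whole stood at 2810 and 1812 CPM in CD44v6-positive samples 1 and 2, against 5675 and 3537 CPM in CD44v6-negative samples 1 and 2. The mean was 2311 ± 705 CPM in CD44v6-positive cells and 4606 ± 1512 CPM in CD44v6-negative cells (SD, n = 2 each). The groups did not overlap, and the order of the 4 sums was also the order of library depth. The mean difference of log2 sums was -0.99 (exact permutation test, two-sided p = 0.333), and 0.333 is the smallest p that 2 against 2 samples allow. Without CD44v6-positive sample 2 the difference was -0.67. As a share of all reads, with no scaling, the guides made up 0.283% and 0.225% in CD44v6-positive cells against 0.377% and 0.425% in CD44v6-negative cells. The exact Clopper-Pearson 95% interval of the shallowest share was 0.202% to 0.250%.

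The make-up of this guide pool differed between the groups in these 4 samples. The shares were not tested, and they were not corrected for GC content, along which the fold changes differed. A ratio within 1 library is free of scaling between libraries, although each guide may be captured with its own efficiency. miR-130b-3p supplied 29.9% and 47.1% of the guide reads in CD44v6-positive samples 1 and 2, against 13.4% and 21.98% in CD44v6-negative samples 1 and 2. It was the most read guide in both CD44v6-positive samples and in neither CD44v6-negative sample. The mean share was 20.8 percentage points higher in CD44v6-positive cells, and 12.2 points without CD44v6-positive sample 2. The 95% Clopper-Pearson interval was 41.8% to 52.5% for CD44v6-positive sample 2, with 348 guide reads in all, and 21.4% to 22.6% for CD44v6-negative sample 2.

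miR-301a-3p supplied 26.4% and 14.9% in CD44v6-positive cells against 40.5% and 31.3% in CD44v6-negative cells, and led the pool in both CD44v6-negative samples. The difference of mean shares was -15.2 percentage points, and -9.50 without CD44v6-positive sample 2. The shares of miR-301b-3p, 15.3% and 6.61% in CD44v6-positive cells against 19.9% and 14.4% in CD44v6-negative cells, overlapped between the groups. Those of miR-454-3p overlapped too, at 9.79% and 14.9% in CD44v6-positive cells and 10.8% and 18.7% in CD44v6-negative cells. miR-130a-3p changed its share least among the guides whose groups did not overlap, at 18.7% and 16.4% in CD44v6-positive cells against 15.4% and 13.7% in CD44v6-negative cells.

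**Figure D4:**
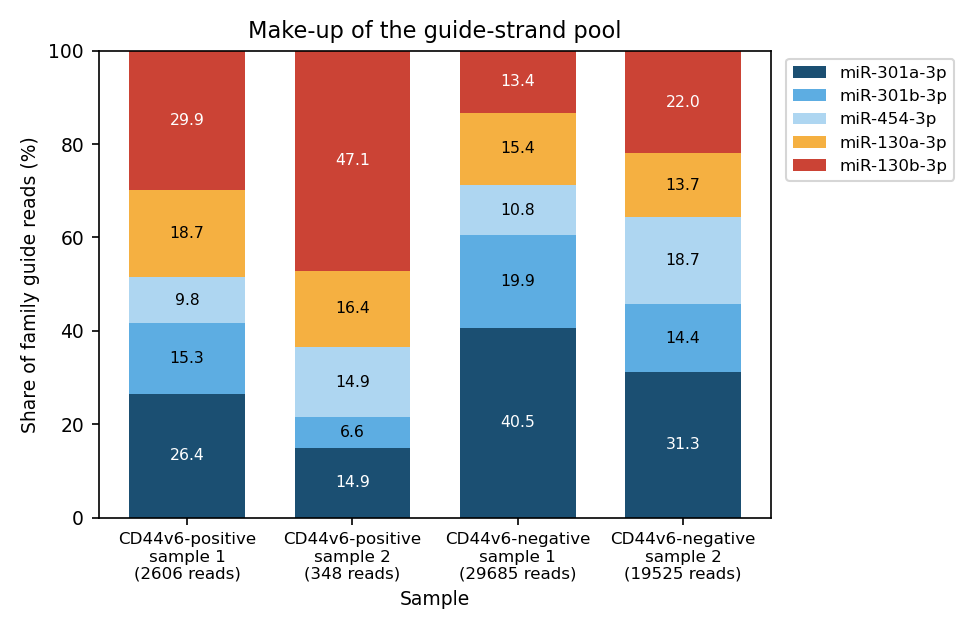
Share of the family guide reads that came from each guide, in percent, in CD44v6-positive samples 1 and 2 (left) and CD44v6-negative samples 1 and 2 (right), with the number of guide reads under each bar. The red part, miR-130b-3p, is 29.9% and 47.1% in CD44v6-positive cells against 13.4% and 21.98% in CD44v6-negative cells.

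Guides from the same locus did not keep a fixed ratio. At the chromosome 22 pair, there were 1.95 and 7.13 reads of miR-130b-3p for each read of miR-301b-3p in CD44v6-positive samples 1 and 2, against 0.670 and 1.53 in CD44v6-negative samples 1 and 2. The groups did not overlap, and the log2 ratio averaged 1.90 ± 1.32 in CD44v6-positive cells and 0.018 ± 0.842 in CD44v6-negative cells (SD, n = 2 each; exact permutation test, two-sided p = 0.333). Without CD44v6-positive sample 2 the difference of log2 ratios was 0.95, against 1.88 with it. At SKA2, there were 2.70 and 1.00 reads of miR-301a-3p for each read of miR-454-3p in CD44v6-positive cells against 3.75 and 1.67 in CD44v6-negative cells. These overlapped (exact permutation test, two-sided p = 0.667). The difference of log2 ratios was -0.61, and it turned to 0.11 without CD44v6-positive sample 2.

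The 2 passengers among the members differed from their guides. miR-130b-5p was read 154 and 105 times in CD44v6-positive samples 1 and 2, or 166 and 547 CPM, against 458 and 817 times in CD44v6-negative samples 1 and 2, or 87.6 and 148 CPM. Both CD44v6-positive values were above both CD44v6-negative values, although CD44v6-positive sample 1 was so by little, and without the TMM factors it was not. miR-130b-5p had a log2 fold change of 1.58 ± 0.73 (SE; edgeR adjusted p = 0.196), and 0.75 without CD44v6-positive sample 2.

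miR-454-5p was the rarest member. It had 20 and 11 reads in CD44v6-positive cells, or 21.6 and 57.3 CPM, against 41 and 189 reads in CD44v6-negative cells, or 7.84 and 34.2 CPM. The groups overlapped. Its fitted log2 fold change was 0.80 ± 0.94 (SE; edgeR adjusted p = 0.595), with 0.32 when CD44v6-positive sample 2 was left out and values between 0.18 and 2.41 over the 4 samples left out in turn.

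The 2 hairpins with both arms among the members are shown so that the arms can be read in place, with the 5p and 3p mature strands in capitals (RefSeq, GRCh38.p14, MIR130B on the plus and MIR454 on the minus strand).
MIR130B: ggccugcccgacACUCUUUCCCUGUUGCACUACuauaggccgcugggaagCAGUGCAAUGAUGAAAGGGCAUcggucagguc
MIR454: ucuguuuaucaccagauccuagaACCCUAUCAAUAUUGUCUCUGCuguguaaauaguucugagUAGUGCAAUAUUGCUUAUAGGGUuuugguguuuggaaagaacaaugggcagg

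Of the reads of the MIR130B hairpin, the passenger made up 16.5% and 39.0% in CD44v6-positive samples 1 and 2, against 10.4% and 15.99% in CD44v6-negative samples 1 and 2. The Clopper-Pearson 95% interval of CD44v6-positive sample 1, 14.2% to 19.1%, held the value of CD44v6-negative sample 2, so these 2 samples could not be told apart at this depth. For MIR454 the passenger share was 7.27% and 17.5% in CD44v6-positive samples against 1.26% and 4.92% in CD44v6-negative samples. The nearest values were again those of CD44v6-positive sample 1, with an interval of 4.50% to 11.01%, and CD44v6-negative sample 2, with 4.26% to 5.65%.

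On the log2 scale the guide to passenger ratio of miR-130b was 1.26 lower in CD44v6-positive cells, at 1.49 ± 1.20 against 2.75 ± 0.51 in CD44v6-negative cells (SD, n = 2 each; exact permutation test, two-sided p = 0.333). Without CD44v6-positive sample 2 that difference was -0.42. For miR-454 the ratio was 2.96 ± 1.012 in CD44v6-positive cells against 5.28 ± 1.43 in CD44v6-negative cells (SD, n = 2 each; exact permutation test, two-sided p = 0.333). The difference was -2.32, and -1.61 without CD44v6-positive sample 2. Such a difference was common in the table. Among 137 hairpins with both arms tested, the less read arm took a share in CD44v6-positive cells that lay above both CD44v6-negative values in 29.2% and below both in 34.3%. In order of the change of this ratio from the most negative, miR-454 was at place 13 and miR-130b at place 34 of the 137.

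**Figure D5:**
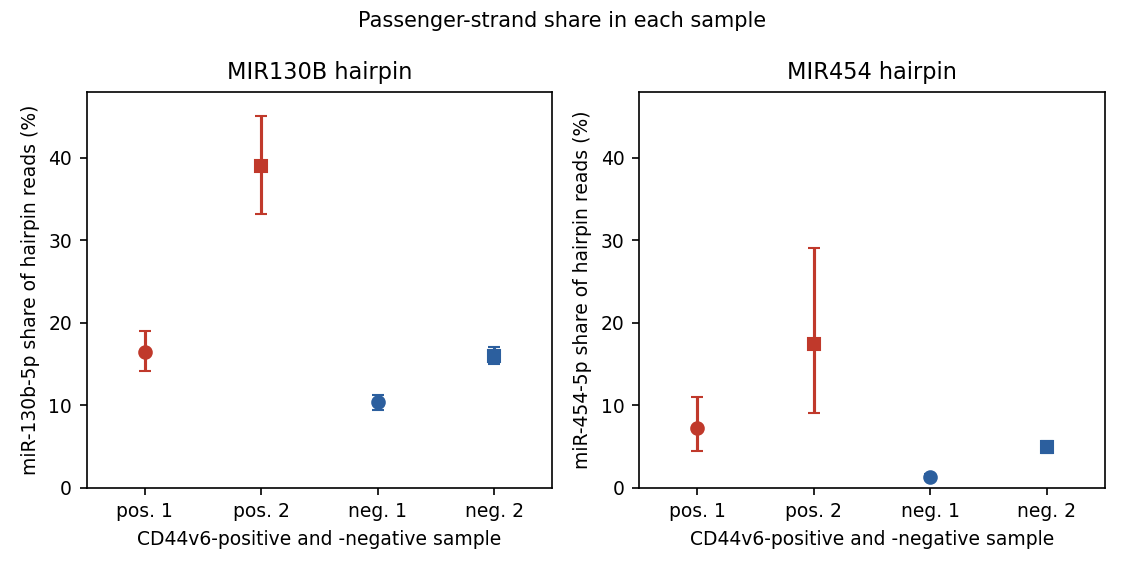
Passenger share of the reads of the MIR130B hairpin (left) and the MIR454 hairpin (right), in percent, in CD44v6-positive samples 1 and 2 (red) and CD44v6-negative samples 1 and 2 (blue), with exact 95% binomial intervals. CD44v6-positive sample 2 is highest in both panels, at 39.0% and 17.5%.

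Of 3 other arms of these hairpins that were listed, 2 had a row. The passenger miR-301a-5p was read 3 and 0 times in CD44v6-positive cells against 32 and 67 times in CD44v6-negative cells (log2 fold change -1.87 ± 1.05, SE; edgeR adjusted p = 0.271). Its fitted level was thus lower in CD44v6-positive cells, as that of its guide was. It made up 0.434% of the reads of its hairpin in CD44v6-positive sample 1, and 0 reads in sample 2 allow up to 5.77%. In CD44v6-negative samples 1 and 2 the share was 0.265% and 1.09%, and the groups overlapped. miR-301b-5p had 0 reads in both CD44v6-positive samples, which allows a share of up to 0.754% and 13.0% of the hairpin's reads, against 12 and 19 reads, or 0.202% and 0.673%, in CD44v6-negative samples, and was not tested. The same-seed miR-3666 and miR-4295 and the passenger miR-130a-5p had no row under these names and so were not analysed here.

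miRNAs with a seed shifted by 1 base against that of the family, which pair with partly the same sites, were miR-19a-3p and miR-19b-3p (seed 1 base later) and miR-148a-3p, miR-148b-3p and miR-152-3p (seed 1 base earlier). With edgeR 0 of these 5 passed, beside 0.0% of all tested miRNAs. At an unadjusted p under 0.05 there were 4, all lower in CD44v6-positive cells, where 17.5% of all tested miRNAs lay lower, and the median log2 fold change was -1.34 beside -0.31 over all tested miRNAs.

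The profile of the summed guides over the 4 samples was set beside those of 183 other tested miRNAs with a mean of at least 100 CPM. The nearest were miR-93-5p, miR-23b-3p, miR-126-3p (also in the endothelial marker list), miR-103a-3p and miR-103b, with a root mean square difference of centred log2 CPM of 0.11, 0.15, 0.17, 0.17 and 0.18. miR-103a-3p and miR-103b derive from complementary strands of the same loci and had close levels in every sample, so their reads may not be separate. miR-93-5p was at 3704 and 2171 CPM in CD44v6-positive cells against 7455 and 5255 CPM in CD44v6-negative cells. Within the family miR-130a-3p lay nearest to the sum, at 0.16, and miR-130b-5p and miR-454-5p farthest, at 1.54 and 1.61. The guides are part of that sum and the passengers are not, so this contrast was partly fixed in advance.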

How the data were processed

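The authors deposited raw read counts per mature miRNA, whole numbers with no normalization. CASAVA 1.8.2, cutadapt 1.10, DESeq2, Bowtie 0.12.9 and the build GRCh38 are named in the submitters' processing notes. Not given in the sources used here are the miRNA annotation and how reads matching several miRNAs were counted. A column is 1 combined identity of the labels, per the file headers, and was counted as 1 sample. The authors' second table, of size-factor scaled values, was not used.

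All 570 miRNAs kept by filterByExpr (minimum count 10, minimum total count 15) were fitted together with edgeR 4.0.16 in R 4.3.3 (TMM, estimateDisp, glmQLFit, glmQLFTest), with Benjamini-Hochberg adjustment over all 570 and a threshold of 0.05. Standard errors were derived from the log2 fold change and its F statistic. DESeq2 1.42.0 and limma 3.58.1 (voom) were alternatives on the same 570. Single values per sample were compared with exact permutation tests (scipy 1.17.1). The edgeR step was tested on simulated data. GC content came from RefSeq mature sequences, which covered 87.2% of tested miRNAs, and the GC correction used a lowess trend per sample as an offset.

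Every member was named. Other miRNAs were named as arms of the same hairpins or entries of the same seed, as members of a short list, or as the 5 nearest profiles. The members and lists were chosen with earlier results of these data known. One list of other miRNAs is not reported here.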

Additional observations from a re-analysis of the deposited data

How the results depend on the processing

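The number of miRNAs passing an adjusted p under 0.05 was 0 with edgeR (74 higher and 100 lower at an unadjusted p under 0.05) and unstable, at 48 with total count scaling, 77 with no filter, 75 with DESeq2, 4 with limma-voom, 1 with the GC correction and 26 to 55 with 1 sample left out. With the replicate number as a block it was 228, of which 4 were family members, miR-301a-3p (adjusted p = 3.66e-06), miR-301b-3p (0.00013) and miR-454-3p (0.00787) lower and miR-130b-5p (0.00744) higher in CD44v6-positive cells. The samples share only a number: the labels give no pairing, although the difference of sample 1 minus sample 2 correlated at 0.39 between the groups over 570 miRNAs. In every other fit 0 members passed. The members' median log2 fold change, -0.71, was 0.36 with the GC correction, in which miR-130a-3p had no value, and -1.31 to -0.16 with 1 sample left out. With no filter the log2 fold changes of all 7 members moved down. That of miR-130b-3p turned to -0.27, while miR-130b-5p and miR-454-5p stayed positive, at 1.09 and 0.40. The median of all rows moved by -1.25, so that miR-130b-3p relative to that median was 1.28, against 0.45 with the filter. Signs also turned for miR-454-3p with the GC correction (0.20) and for the difference between the groups in the log2 ratio of miR-301a-3p to miR-454-3p. That difference ran from -1.32 to 0.11 with 1 sample left out. The difference between the groups in the log2 sum of the guides stayed negative under each scaling and with each sample left out, from -1.33 to -0.65. The difference in the log2 guide to passenger ratio also stayed negative with each sample left out. It ran from -2.11 to -0.42 for miR-130b and from -3.33 to -1.32 for miR-454. The GC correction was not applied to the summed guides or to these ratios. Depth limits CD44v6-positive sample 2 most, where the members rest on 11 to 164 reads.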
